A study of Mus musculus with 24 samples.

Results

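The values given here are RNA levels, not amounts of stored fat. They come from hepatocytes of aged mice that ate a normal or a high-fat diet, the latter with or without rapamycin. Covered are 10 genes of lipid droplets. They were chosen by name from the 55421 gene rows of the count table as genes whose products coat, fuse, fill or empty lipid droplets, or drive their transcription. They are Cidea, Cidec, Plin2, Plin4, Plin5, Mogat1, Pparg, G0s2, Pnpla2 and Pnpla3, and all 10 passed the filter on low counts that left 13847 genes for testing. Hepatocytes were isolated by 2-step liver perfusion from 24 male C57BL/6J mice, 1 library per animal, and polyadenylated RNA was sequenced. Every animal started vehicle or rapamycin, an inhibitor of the kinase mTOR, in normal diet at 4 months of age. At 18 months, 8 vehicle animals were kept on the normal diet (ND+veh). For 9 weeks, 7 vehicle animals (HFD+veh) and 9 rapamycin animals (HFD+eRapa, encapsulated drug at 42 ppm) ate a high-fat diet, in which fat supplied 60% of the calories. The libraries used here hold no group on normal diet with rapamycin, so an effect of the drug alone cannot be told apart from its effect on the response to the diet.

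Hepatocytes store triglyceride in lipid droplets, a neutral lipid core under a single layer of phospholipid and coat proteins. Perilipins (Plin genes) coat the droplet and control the access of lipases, CIDE proteins (Cidea, Cidec) move lipid from small droplets into larger ones, and Mogat1 makes diacylglycerol, the precursor of triglyceride. Pnpla2 (adipose triglyceride lipase) starts the breakdown of the stored fat, G0s2 inhibits it, and Pnpla3 is a related droplet protein. Pparg encodes the nuclear receptor PPAR gamma, which drives many of these genes in fat cells and in fatty liver.

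The libraries held 17.7 to 25.9 M counts (M, 1000000), with a median of 21.1 M. HFD+veh replicate 6 lay farthest from its group's centre on 3 principal components (distance 84.7). ND+veh replicate 4 was the farthest of the ND+veh animals (60.3). The results below were also computed without both, a pair chosen after seeing the data. HFD+veh replicates 1 and 2, at 63.3 and 62.3, lay farther from their group's centre than ND+veh replicate 4 and were kept. Hepatocyte markers such as Alb were present in all libraries, with a summed level of at least 51162 counts per M (CPM) over 7 genes. Markers of other liver cells differed widely between animals. The summed level of 9 macrophage markers ran from 43.5 to 1344 CPM in ND+veh (median 255), from 169 to 5406 in HFD+veh (median 2481) and from 16.1 to 1101 in HFD+eRapa (median 204). Of 5 adipocyte markers, the defining ones were almost absent: Adipoq was at 0 in 21 of 24 libraries, Lep in 23 and Retn in 21. In such bulk samples, fewer cells of a type and less RNA per cell cannot be told apart.

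All coordinates are those of GRCm38, the assembly also called mm10. Cidec lies at chr6:113424634-113435760 and Plin2 at chr4:86648386-86670060. Plin4 (chr17:56100591-56109803) and Plin5 (chr17:56111601-56117596) are neighbours on the same strand. Mogat1 lies at chr1:78510991-78538173, Pparg at chr6:115360951-115490399 and G0s2 at chr1:193272161-193273217. Pnpla2 lies at chr7:141455198-141460743 and Pnpla3 at chr15:84167837-84187236. Reads were counted over the exons of each gene. The exons of Mogat1 share 200 bases, 12.8% of their length, with those of BC035947 on the opposite strand, and those of Pnpla3 share 105 bases (6.78%) with Gm49513. Both partners were scarce, with 0 to 25 counts per library for BC035947 and 0 to 2 for Gm49513, and the setting of strand in the counting is not given in the sources used here.

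The bases before the start of transcription are shown for Cidec, Plin4, Mogat1 and Plin2, because these genes exceeded ND+veh levels in HFD+eRapa. They run 5′ to 3′ on the gene's strand and come from RefSeq promoter windows of GRCm38.p6, less any base that lies in an exon. Capitals mark the nuclear receptor motif AGGTCA, which reads TGACCT on the other strand.
Cidec: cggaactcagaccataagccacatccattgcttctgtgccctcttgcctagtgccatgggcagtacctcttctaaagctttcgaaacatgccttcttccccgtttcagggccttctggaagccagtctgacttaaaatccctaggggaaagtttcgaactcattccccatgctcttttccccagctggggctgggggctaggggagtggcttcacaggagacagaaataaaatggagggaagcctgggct
Plin4: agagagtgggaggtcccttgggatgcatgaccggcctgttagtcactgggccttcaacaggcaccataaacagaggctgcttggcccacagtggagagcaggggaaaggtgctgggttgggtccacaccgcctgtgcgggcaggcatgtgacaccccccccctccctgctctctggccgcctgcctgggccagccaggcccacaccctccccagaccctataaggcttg
Mogat1: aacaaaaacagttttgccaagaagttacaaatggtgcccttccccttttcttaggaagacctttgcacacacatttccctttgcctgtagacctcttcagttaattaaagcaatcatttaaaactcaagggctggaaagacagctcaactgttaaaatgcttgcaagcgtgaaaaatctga
Plin2: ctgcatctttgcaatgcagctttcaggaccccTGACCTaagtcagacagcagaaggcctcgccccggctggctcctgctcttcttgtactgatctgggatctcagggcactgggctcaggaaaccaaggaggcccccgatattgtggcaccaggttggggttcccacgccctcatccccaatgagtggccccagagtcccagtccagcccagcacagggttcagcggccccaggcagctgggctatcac
These stretches are chr6:113435761-113436010 (minus strand) for Cidec, chr17:56109804-56110032 (minus strand) for Plin4, chr1:78510810-78510990 (plus strand) for Mogat1 and chr4:86670061-86670309 (minus strand) for Plin2. Windows of 250 bases before the start were available for 9 of the 10 genes (13 windows, Cidea not analysed here). The motif was found, on either strand, in 4 windows of 3 genes: 218 bases before the start in Plin2, 170 bases before it in Plin5, and in 2 Pparg windows. Of all 32851 mouse promoter windows of this length, 14% held it. No window of the 9 genes held 2 copies of the motif in direct repeat with 1 base between them, which 0.0335% of all windows did. A match says only that these letters are present.

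**Figure D1:**
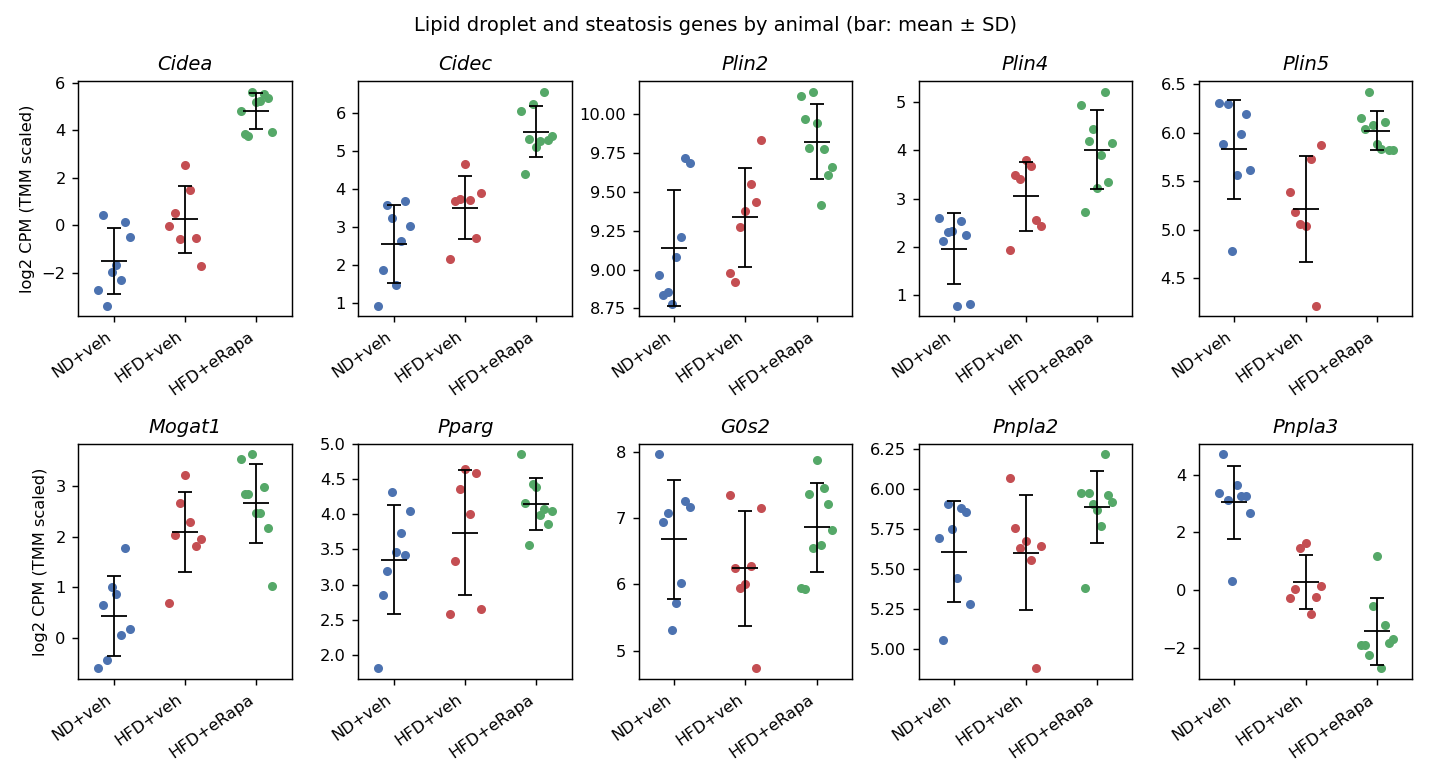
Level of each of the 10 genes (y axis, log2 CPM with TMM scaling) in each animal of ND+veh (n = 8), HFD+veh (n = 7) and HFD+eRapa (n = 9); each point is 1 animal and the black bar is the mean ± SD. The HFD+eRapa animals sit above every other animal for Cidea, while Pnpla3 steps down from ND+veh to HFD+veh to HFD+eRapa with overlap at each step.

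Levels per length placed the 10 genes on a common scale of FPKM (fragments per kilobase and M mapped fragments). Plin2 was the most abundant in every group, with a median of 305 FPKM in ND+veh, 417 in HFD+veh and 481 in HFD+eRapa. G0s2 came next, with medians of 197, 113 and 180 FPKM, and its range overlapped that of Plin2 only in ND+veh. Pnpla2 and Plin5 had medians between 18.3 and 30.5 FPKM, with overlapping ranges in all 3 groups, and came next in ND+veh and HFD+veh and behind Cidea and Cidec in HFD+eRapa. Cidea ranked 10th of the 10 in ND+veh at a median of 0.221 FPKM, 9th in HFD+veh at 0.717 and 3rd in HFD+eRapa at 35.3, where its range overlapped that of Cidec (median 32.8). Pnpla3 ranked 6th in ND+veh at a median of 4.87 FPKM, within the range of its neighbours Pparg and Cidec, and last in both high-fat groups, at 0.447 FPKM in HFD+veh and 0.0785 in HFD+eRapa.

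The first comparison, HFD+veh against ND+veh, asks what the high-fat diet did in vehicle-fed animals. Cidea, Plin4 and Mogat1 rose and Plin5 and Pnpla3 fell, while Cidec, Plin2, Pparg, G0s2 and Pnpla2 did not pass the test. The count of 3 of 10 genes higher stands beside 16% of all tested genes called higher, and the 2 of 10 lower beside 9.86% called lower (edgeR quasi-likelihood test, adjusted p under 0.05 over all genes). Over the 10 genes the log2 fold change had a median of 0.31, against 0.05 over all tested genes. None of the 10 had groups without overlap, which 2.44% of all tested genes had. Without ND+veh replicate 4 and HFD+veh replicate 6, 2 were higher and 2 lower, as Cidea no longer passed (adjusted p = 0.0589, edgeR).

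Pnpla3 showed the largest difference of the 10. In ND+veh its level ran from 1.13 to 25.9 CPM with a median of 9.49, and in HFD+veh from 0.463 to 3.0 with a median of 0.925. ND+veh replicate 4, the lowest of its group, was the only ND+veh animal within the HFD+veh range. The log2 fold change was -2.92 ± 0.64 (SE, adjusted p = 0.00317, edgeR), the 21st largest fall of the 13847 genes.

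Mogat1, the monoacylglycerol acyltransferase, was rare in both groups. It lay between 0.57 and 3.33 CPM in ND+veh (median 1.27) and between 1.51 and 9.13 in HFD+veh (median 4.01). By CPM, all but 1 of the HFD+veh animals exceeded the highest ND+veh animal. By FPKM the overlap was wider, with 0.511 to 7.30 in ND+veh and 2.30 to 13.5 in HFD+veh. ND+veh replicate 4, at 7.30 FPKM, lay above the HFD+veh median of 6.15. The log2 fold change was 1.68 ± 0.39 (SE, adjusted p = 0.00483, edgeR).

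Cidea, scarce in normal adult liver, stood at 0 to 1.26 CPM in ND+veh (median 0.187, at most 33 counts) and at 0.209 to 5.69 CPM in HFD+veh (median 0.887). The groups overlapped, and HFD+veh replicates 2, 4 and 5 lay above the ND+veh range. The log2 fold change was 1.98 ± 0.66 (SE, adjusted p = 0.0313, edgeR). Plin4, a perilipin that is abundant in fat tissue, went from 1.63 to 5.96 CPM in ND+veh (median 4.74) to 3.76 to 13.9 in HFD+veh (median 10.5). Its log2 fold change was 1.1 ± 0.36 (SE, adjusted p = 0.0301, edgeR). Plin5, which ties droplets to mitochondria, fell by 0.60 on the log2 scale (SE 0.21, adjusted p = 0.0348, edgeR), from a median of 61.1 CPM (27.5 to 79.1) to 36.3 (18.6 to 58.4).

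Plin2, the main perilipin of hepatocytes, had a median of 521 CPM in ND+veh and 665 in HFD+veh, with a log2 difference of 0.18 ± 0.16 (SE, adjusted p = 0.42, edgeR). The corresponding difference was 0.87 ± 0.40 for Cidec (adjusted p = 0.105, edgeR) and 0.44 ± 0.32 for Pparg (adjusted p = 0.324, edgeR). For the lipase side, it was -0.46 ± 0.39 for G0s2 (adjusted p = 0.389, edgeR) and 0.00 ± 0.15 for Pnpla2 (adjusted p = 0.999, edgeR). None of these 5 values passed the test.

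The calls of Cidea, Plin4 and Plin5 lay near the threshold and were lost without some single libraries, with no change of sign, and those of Mogat1 and Pnpla3 held when any single library was left out (largest adjusted p 0.0181 for Mogat1, edgeR). Cidea lost its call without any 1 of ND+veh replicates 1, 3, 4, 5 or 6 or HFD+veh replicates 4 or 5 (log2 fold change 1.24 to 2.49 over all 24 omissions, adjusted p up to 0.156, edgeR). Plin4 lost it without ND+veh replicate 5 or HFD+veh replicates 3, 4 or 5 (0.94 to 1.23, adjusted p up to 0.0787, edgeR), and Plin5 without ND+veh replicates 1, 3, 6 or 7 or HFD+veh replicates 3, 4 or 6 (-0.74 to -0.51, adjusted p up to 0.0701, edgeR). Some markers of other cells moved with this comparison. Of those tested, 3 of 9 macrophage, 3 of 3 cholangiocyte, 2 of 2 neutrophil and 1 of 1 lymphocyte markers were called higher. The share of all tested genes called higher was 16%. In the endothelial and stellate lists only 1 of 7 each was called higher, near that share. No marker of these lists was called lower. Spp1, listed here with the cholangiocyte markers, had a log2 fold change of 5.31 (adjusted p = 7.89e-05, edgeR). The keratins of that list, Krt7 and Krt19, were too rare to test (HFD+veh medians 0.169 and 0.126 CPM). With a score of 12 immune marker genes as a covariate, only Pnpla3 kept its call (log2 fold change -2.59, adjusted p = 0.0317, edgeR). In that fit Cidea stood at 1.95 (adjusted p = 0.128, edgeR), Mogat1 at 1.08 (adjusted p = 0.0734, edgeR), Plin4 at 0.93 (adjusted p = 0.195, edgeR) and Plin5 at -0.54 (adjusted p = 0.17, edgeR). The score itself differed between the groups, from -1.27 to 0.637 in ND+veh and from -0.403 to 1.76 in HFD+veh. This fit thus cannot tell the diet and the score apart. The part of these cells in the changes of the 10 genes was not tested further.

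The next comparison, HFD+eRapa against HFD+veh, asks what rapamycin changed on the high-fat diet. Cidea, Cidec, Plin2, Plin4 and Plin5 rose and Pnpla3 fell, and Mogat1, Pparg, G0s2 and Pnpla2 did not pass the test. The 5 of 10 higher stand beside 10.9% of all tested genes called higher and the 1 of 10 lower beside 21.1% called lower. The median log2 fold change was 0.56 over the 10 genes and -0.04 over all tested genes. Cidea alone of the 10 had groups without overlap, which 2.59% of all tested genes had. Without ND+veh replicate 4 and HFD+veh replicate 6 the counts were 4 higher and 1 lower, as Plin4 no longer passed (adjusted p = 0.0616, edgeR).

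Cidea had between 13.4 and 49.0 CPM in HFD+eRapa, with a median of 36.7. The lowest HFD+eRapa animal (replicate 3, 237 counts) lay above the highest HFD+veh animal (replicate 4, 144 counts, 5.69 CPM). The log2 fold change was 4.16 ± 0.65 (SE, adjusted p = 0.00014, edgeR), a 17.9-fold difference and the 21st largest rise of all tested genes.

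Cidec, the CIDE protein of large droplets, ran from 4.38 to 25.4 CPM in HFD+veh (median 13) and from 21.0 to 95.1 in HFD+eRapa (median 39.7). Only HFD+eRapa replicate 2, its group's lowest, fell inside the HFD+veh range, below HFD+veh replicate 4. The log2 fold change was 1.96 ± 0.40 (SE, adjusted p = 0.00147, edgeR).

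The 3 perilipins moved by less. Plin5 had a median of 65.4 CPM in HFD+eRapa (56.5 to 85.5), a log2 fold change of 0.74 ± 0.20 over HFD+veh (SE, adjusted p = 0.0082, edgeR), and HFD+veh replicate 7 alone reached its range. Plin4 had a median of 17.5 CPM (6.48 to 37.0) and a log2 fold change of 1.03 ± 0.36 (SE, adjusted p = 0.0304, edgeR). Plin2 had a median of 879 CPM (682 to 1130) against 665 (485 to 910), a log2 fold change of 0.47 ± 0.16 (SE, adjusted p = 0.0265, edgeR). Both Plin4 and Plin2 overlapped between the groups.

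Pnpla3 fell further, to a median of 0.186 CPM in HFD+eRapa (0.0563 to 2.15, 1 to 42 counts). HFD+eRapa replicate 5 was the highest animal and lay above 5 of the 7 HFD+veh animals. The log2 fold change was -1.61 ± 0.62 (SE, adjusted p = 0.0488, edgeR). For the genes that did not pass, the log2 difference was 0.57 ± 0.37 for Mogat1 (adjusted p = 0.253, edgeR), 0.25 ± 0.32 for Pparg (adjusted p = 0.582, edgeR), 0.55 ± 0.38 for G0s2 (adjusted p = 0.279, edgeR) and 0.27 ± 0.14 for Pnpla2 (adjusted p = 0.162, edgeR).

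Macrophage, endothelial and stellate markers fell between HFD+veh and HFD+eRapa, with 7 of 9, 7 of 7 and 7 of 7 called lower. The share of all tested genes called lower was 21.1%. Of the other lists, 1 of 1 lymphocyte, 1 of 2 neutrophil and 1 of 3 cholangiocyte markers tested were lower as well, and the 7 stellate markers summed to 34.0 to 413 CPM in HFD+veh and 19.7 to 99.2 in HFD+eRapa. With the immune score as a covariate, Cidea (log2 fold change 4.19, adjusted p = 0.000602, edgeR), Cidec (2.39, adjusted p = 0.00242, edgeR) and Plin2 (0.78, adjusted p = 0.00355, edgeR) stayed higher. In that fit Plin4 (1.21, adjusted p = 0.0913, edgeR), Plin5 (0.67, adjusted p = 0.0859, edgeR) and Pnpla3 (-1.98, adjusted p = 0.16, edgeR) lost their calls. In the same fit Mogat1 (1.21, adjusted p = 0.0499, edgeR) and Pparg (1.06, adjusted p = 0.0466, edgeR) came to pass the test. The score ran from -0.403 to 1.76 in HFD+veh and from -1.76 to 0.716 in HFD+eRapa. Calls gained or lost in this fit thus cannot tell the drug and the score apart. Without the covariate, the call of Pnpla3 was lost in 17 of the 24 fits that left out 1 library, and held only without ND+veh replicates 2 or 4, HFD+veh replicates 1, 2, 5 or 7, or HFD+eRapa replicate 5 (log2 fold change -2.54 to -1.27 over all 24, adjusted p up to 0.141, edgeR). Plin4 lost its call without HFD+veh replicates 1, 6 or 7 or HFD+eRapa replicates 1 or 7 (0.83 to 1.19, adjusted p up to 0.0692, edgeR), and Plin2 without HFD+veh replicate 2 (adjusted p = 0.0516, edgeR).

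**Figure D2:**
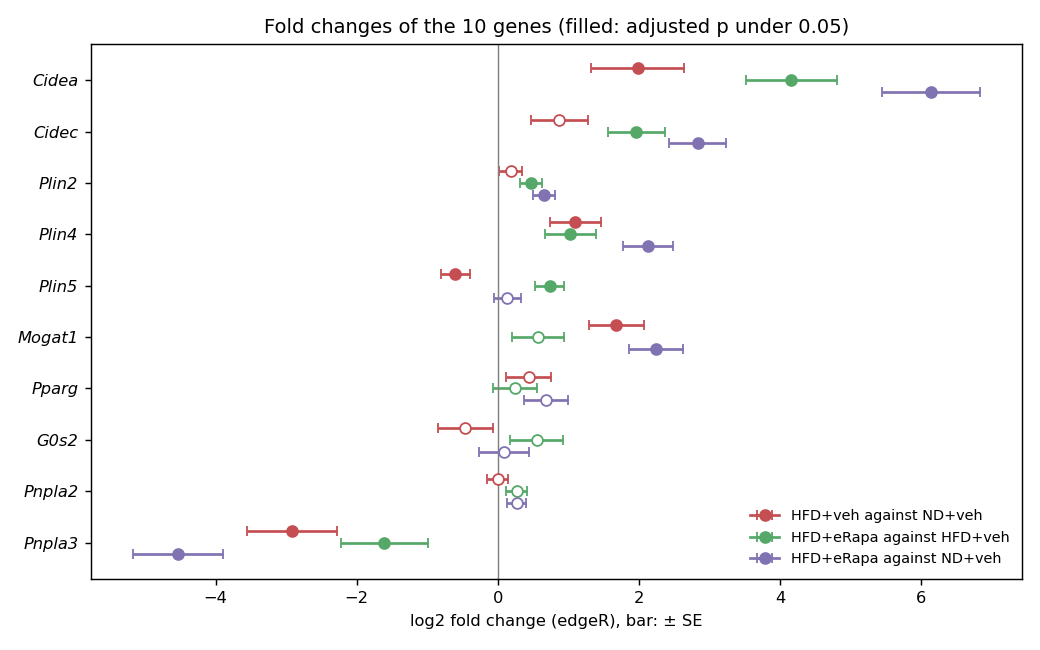
Log2 fold change (x axis, edgeR; bars ± SE) of each of the 10 genes (y axis) in the 3 comparisons, with filled points for an adjusted p under 0.05. Cidea, at 6.14, and Pnpla3, at -4.53, mark the ends of the range in HFD+eRapa against ND+veh. Plin5 points down in HFD+veh against ND+veh (-0.60) and up in HFD+eRapa against HFD+veh (0.74), comparisons that share the HFD+veh animals.

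HFD+eRapa against ND+veh compares animals that differed in both diet and drug. Cidea, Cidec, Plin2, Plin4 and Mogat1 were higher and Pnpla3 was lower, which was 5 of 10 beside 6.93% of all tested genes called higher and 1 of 10 beside 6.54% called lower. The same counts of 5 and 1 were found with any single library left out. The median log2 fold change was 0.67, against -0.03 over all tested genes. Cidea, Cidec and Plin4 had groups without overlap, as 3.37% of all tested genes did. Without ND+veh replicate 4 and HFD+veh replicate 6 the counts were again 5 and 1.

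For Cidea the log2 fold change was 6.14 ± 0.69 (SE, adjusted p = 3.59e-06, edgeR), the 4th largest rise of the 13847 genes. Cidec ran from 1.82 to 12.9 CPM in ND+veh, all below the 21.0 CPM of the lowest HFD+eRapa animal, with a log2 fold change of 2.83 ± 0.40 (SE, adjusted p = 4.59e-05, edgeR). The Plin4 ranges nearly met, at 5.96 CPM for the highest ND+veh and 6.48 for the lowest HFD+eRapa animal, with a log2 fold change of 2.13 ± 0.36 (SE, adjusted p = 0.000236, edgeR). Mogat1 ran from 1.95 to 12.2 CPM in HFD+eRapa and by CPM overlapped ND+veh through HFD+eRapa replicate 9. By FPKM the ND+veh range reached 7.30 and the HFD+eRapa range began at 4.71. The log2 fold change of Mogat1 was 2.25 ± 0.38 (SE, adjusted p = 0.000263, edgeR). Plin2 was higher by a log2 fold change of 0.66 ± 0.15 (SE, adjusted p = 0.00515, edgeR).

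Pnpla3 had the 3rd largest fall of all tested genes here, a log2 fold change of -4.53 ± 0.63 (SE, adjusted p = 3.8e-05, edgeR). All but 1 of the HFD+eRapa animals were below the lowest ND+veh animal, HFD+eRapa replicate 5 being the exception. Pparg had a log2 difference of 0.68 ± 0.31 (adjusted p = 0.152, unadjusted p = 0.0352, edgeR), and with the immune score as a covariate it passed the test at 0.89 (adjusted p = 0.0104, edgeR). Plin5 differed by 0.13 ± 0.19 (adjusted p = 0.728, edgeR), G0s2 by 0.09 ± 0.36 (adjusted p = 0.919, edgeR) and Pnpla2 by 0.27 ± 0.14 (adjusted p = 0.233, edgeR), none of which passed.

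No macrophage or endothelial marker was called in this comparison, and 4 of 7 stellate markers were lower. Among all tested genes 6.54% were called lower and 6.93% higher. Of 3 tested cholangiocyte markers 1 was higher, Spp1, with a log2 fold change of 2.64 (adjusted p = 0.00903, edgeR). Among the adipocyte markers, Cfd (adipsin, a serine protease of the complement system) was, like Cidea, higher in HFD+eRapa than in both other groups. Its level was 0.0315 to 0.314 CPM in ND+veh, 0.0843 to 1.67 in HFD+veh and 20.2 to 65.7 in HFD+eRapa, which gave log2 fold changes of 7.77 for HFD+eRapa over ND+veh (adjusted p = 1.48e-10, edgeR), 5.79 for HFD+eRapa over HFD+veh (adjusted p = 1.43e-08, edgeR) and 1.98 for HFD+veh over ND+veh (adjusted p = 0.00643, edgeR). The other tested adipocyte marker, Adrb3, was not called in any comparison, and in HFD+eRapa Adipoq reached at most 0.158 CPM and Retn 0.0618, with Lep at 0 in all 9 libraries. Plin1, the perilipin of fat cells, was at 0 in 21 of 24 libraries and reached 2 counts at most. Between animals of the same group, Cidea and the summed adipocyte markers had r = 0.08 (permutation p = 0.748, adjusted p = 0.854). That sum came almost wholly from Adrb3 and Cfd, as Adipoq, Lep and Retn were near 0. The medians of Adrb3 and Cfd were 5.48 and 0.23 CPM in ND+veh and 4.21 and 45.2 CPM in HFD+eRapa. This r thus cannot measure fat cells in the samples. Whether other cells had a part in the Cidea and Cidec levels was not tested beyond these values.

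Within families the balance of members differed between groups, given here as shares of FPKM without a test. Cidea and Cidec together made up 0.214 to 3.81% of the FPKM of Cidea, Cideb and Cidec in ND+veh (median 1.79%). Their share was 1.07 to 9.94% in HFD+veh (median 4.01%) and 8.83 to 31.2% in HFD+eRapa (median 16.9%). Cideb, the CIDE gene of normal hepatocytes, held the rest of that sum in each animal and was not called in any comparison. Plin2 held most of the Plin2, Plin3, Plin4 and Plin5 FPKM, with medians of 88.4%, 92.2% and 92.2% in ND+veh, HFD+veh and HFD+eRapa, and Plin5 held medians of 7.30%, 5.10% and 5.47%. Pnpla3 made up a median of 14.5% of the Pnpla2 and Pnpla3 FPKM in ND+veh, 1.48% in HFD+veh and 0.337% in HFD+eRapa. The ranges overlapped, at 1.65 to 39.7%, 0.948 to 4.89% and 0.112 to 2.48%. The ratio of G0s2 to Pnpla2 FPKM, inhibitor to lipase, had medians of 7.29, 4.09 and 5.59 with ranges that overlapped between all groups.

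**Figure D3:**
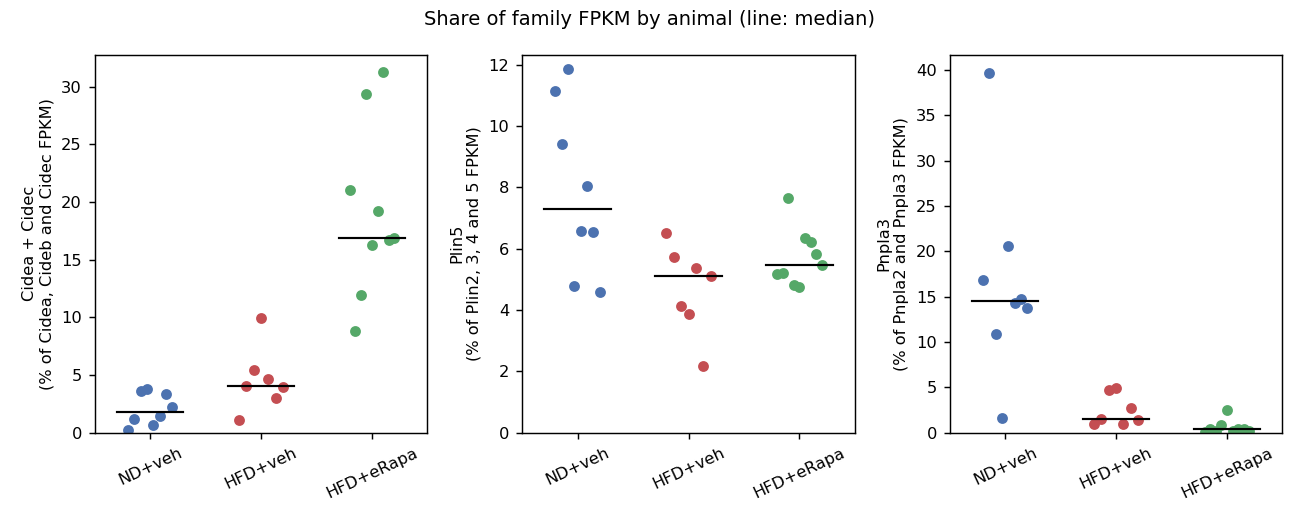
Share of family FPKM (y axes, percent) held by Cidea plus Cidec, by Plin5 and by Pnpla3 in each animal of the 3 groups; points are animals and black lines are medians. The Cidea and Cidec share is 8.83% or more in all HFD+eRapa animals and reaches 9.94% in HFD+veh. The Pnpla3 share is at most 4.89% in both high-fat groups. In ND+veh it runs from 1.65 to 39.7% (median 14.5%), so the ranges overlap.

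The 10 genes also varied between animals of the same group, and their deviations from the group means were correlated over the 24 libraries for all 45 pairs. After adjustment over the 45 pairs, 2 Pearson correlations had a p under 0.05 and no pair passed by Spearman's rho as well. Pparg and G0s2 varied inversely (r = -0.71, permutation p = 0.00032, adjusted p = 0.0144; rho = -0.65, permutation p = 0.0015, adjusted p = 0.0675), with r = -0.59 without the 2 animals farthest from the median of Pparg. Plin5 and G0s2 varied together (r = 0.66, permutation p = 0.00146, adjusted p = 0.0328; rho = 0.57, permutation p = 0.00783, adjusted p = 0.132), with r = 0.43 without 2 animals. Within groups the Plin5 and G0s2 correlation was 0.78 in ND+veh, 0.85 in HFD+veh and -0.04 in HFD+eRapa. Cidec and Plin4 had r = 0.54 (permutation p = 0.00801, adjusted p = 0.088; rho = 0.54, permutation p = 0.00901, adjusted p = 0.132).

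**Figure D4:**
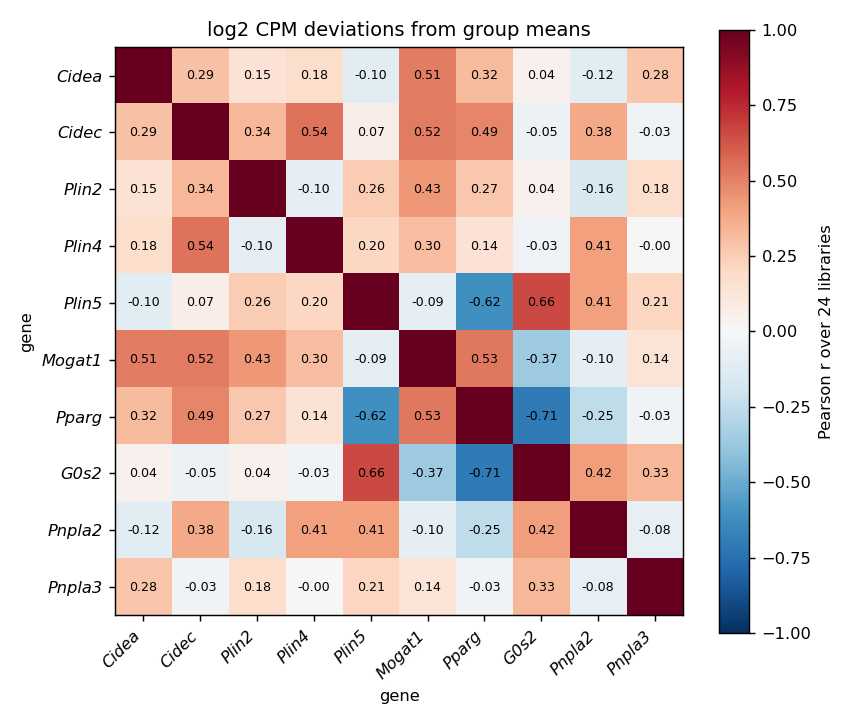
Pearson r (colour and printed value) between the 10 genes, on both axes, for log2 CPM deviations from group means over 24 libraries. Pparg runs against G0s2 (-0.71) and Plin5 (-0.62), and G0s2 runs with Plin5 (0.66).

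Several of these deviations moved with the summed level of markers of other cell types, of 80 relations computed. Pparg did so with stellate markers (r = 0.78, permutation p = 0.00012, adjusted p = 0.0052; rho = 0.74, permutation p = 0.00018, adjusted p = 0.0048), and r was 0.66 without the 2 animals farthest from the median. It did so with macrophage markers as well (r = 0.64, permutation p = 0.00051, adjusted p = 0.0102; rho = 0.67, permutation p = 0.0005, adjusted p = 0.01), with r = 0.62 without 2 animals. Plin2 followed macrophage markers (r = 0.63, permutation p = 0.00117, adjusted p = 0.0187; rho = 0.66, permutation p = 0.00075, adjusted p = 0.0109), with r = 0.54 without 2 animals. G0s2 ran against stellate markers (r = -0.63, permutation p = 0.00192, adjusted p = 0.0219; rho = -0.58, permutation p = 0.00466, adjusted p = 0.0373), with r = -0.50 without 2 animals. The part of such cells in the measured levels of Pparg, Plin2 and G0s2 was not tested.

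The genes whose deviations were most like those of 3 chosen genes, of 7806 compared over the 24 libraries, are a description without a test. For Pparg they were Asap1 (r = 0.91), Tgfbr2 (r = 0.91), a receptor of transforming growth factor beta, and Rin2 (r = 0.90). For Cidec they were Acot2 (r = 0.86), a mitochondrial acyl-CoA thioesterase, Capn2 (r = 0.74) and Nagk (r = 0.74). For Plin2 they were Tfpi2 (r = 0.88), Arl4a (r = 0.85) and Hsdl2 (r = 0.84).

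Other genes of triglyceride storage were taken from 4 lists of 49 genes, of which 46 were tested. Plin1, Mogat2 and Aqp7 fell below the count filter. In HFD+veh against ND+veh, 6 were higher and 10 lower, in HFD+eRapa against HFD+veh 15 were higher and 8 lower, and in HFD+eRapa against ND+veh 8 were higher and 4 lower. Called genes were thus 34.8%, 50% and 26.1% of the 46, beside 25.9%, 32% and 13.5% of all tested genes. The median log2 fold changes were -0.24, 0.21 and 0.15.

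On the droplet coat and in droplet assembly (13 tested), Hsd17b13, a droplet-bound enzyme of the hydroxysteroid dehydrogenase family, rose in HFD+veh over ND+veh from a mean of 372 to 913 CPM without overlap (log2 fold change 1.30 ± 0.17, SE, adjusted p = 2.61e-05, edgeR). Aup1 (-0.53) and Fitm2 (-0.46) fell. Between the high-fat groups Fitm1 rose from a mean of 13.8 to 67.1 CPM in HFD+eRapa (log2 fold change 2.28 ± 0.33, SE, adjusted p = 7.31e-05, edgeR) and Fitm2 rose by 1.17, both without overlap. Tmem159, a droplet assembly factor, was rare and fell by 2.57, from a mean of 2.56 to 0.421 CPM (1 to 15 counts in HFD+eRapa). Fitm1 and Fitm2 encode endoplasmic reticulum proteins needed to form droplets. Against ND+veh the same 3 genes led in HFD+eRapa, with 1.48 for Fitm1, 0.71 for Fitm2 and -1.89 for Tmem159. Hsd17b13 was lower by 0.79 in HFD+eRapa against HFD+veh (adjusted p = 0.00148, edgeR). In HFD+eRapa against ND+veh it was higher by 0.51 (adjusted p = 0.0355, edgeR). The comparisons with HFD+veh share its animals.

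Of 12 tested genes of triglyceride synthesis, 9, 8 and 11 did not pass the test in the 3 comparisons. Called genes were thus 25%, 33.3% and 8.33% of the list, beside 25.9%, 32% and 13.5% of all tested genes. Gpat3, a glycerol-3-phosphate acyltransferase, was higher than in ND+veh in both HFD+veh (log2 fold change 0.96) and HFD+eRapa (0.81). The phosphatidate phosphatase Lpin2 fell by 0.64 in HFD+veh against ND+veh and was higher by 0.72 in HFD+eRapa against HFD+veh, and the acyltransferase Agpat3 went by -0.53 and 0.58 in the same comparisons, which share the HFD+veh animals. Agpat5 fell by 0.58 in HFD+eRapa against HFD+veh. Dgat1 and Dgat2, which complete triglyceride, were not called in any comparison.

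Of 10 genes of triglyceride breakdown, 3, 4 and 3 were called in the 3 comparisons, or 30%, 40% and 30% beside 25.9%, 32% and 13.5% of all tested genes. The 3 called in HFD+veh against ND+veh were lower: the carboxylesterase Ces1d (-0.83), Abhd6 (-0.48) and Pnpla7 (-0.43). The 4 called in HFD+eRapa against HFD+veh were higher, led by the monoacylglycerol lipase Mgll, which went from a mean of 134 to 287 CPM without overlap (log2 fold change 1.1 ± 0.21, SE, adjusted p = 0.000648, edgeR). Pnpla7 rose by 0.89 and Abhd6 by 0.68 in this comparison, which shares the HFD+veh animals with HFD+veh against ND+veh. Against ND+veh the HFD+eRapa animals were higher in Mgll (0.66), Pnpla7 (0.46) and Pnpla8 (0.34).

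The last list, 11 tested genes, held partners and targets of PPAR gamma and also the related receptors Ppara and Ppard. In HFD+veh against ND+veh 4 were higher and 2 lower, and in HFD+eRapa against HFD+veh 4 were higher and 4 lower. In HFD+eRapa against ND+veh 1 was higher and 2 lower. Called genes were thus 54.5%, 72.7% and 27.3% of the 11, beside 25.9%, 32% and 13.5% of all tested genes. Fabp4, a fatty acid carrier of fat cells and macrophages, rose by 3.14 on the log2 scale in HFD+veh over ND+veh, lipoprotein lipase (Lpl) by 2.52 and the fatty acid transporter Cd36 by 1.97. In HFD+eRapa against HFD+veh the same 3 fell, Lpl by 3.34, Fabp4 by 1.64 and Cd36 by 1.25 on the log2 scale. These comparisons share the HFD+veh animals. Other genes of the list went the other way: Angptl4 and Ppard fell in the first, by 1.00 and 1.63, and Ppara (1.06), Angptl4 (1.06), Acsl1 (1.00) and Rxra (0.55) rose in HFD+eRapa against HFD+veh. Macrophage markers were higher and lower in the same comparisons, as given above, and their part in these 3 genes was not tested. In HFD+eRapa against ND+veh the named genes were Ppard (-2.05), Ppargc1a (-0.78) and Ppara (0.71), which encode other PPAR receptors and a coactivator.

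**Figure D5:**
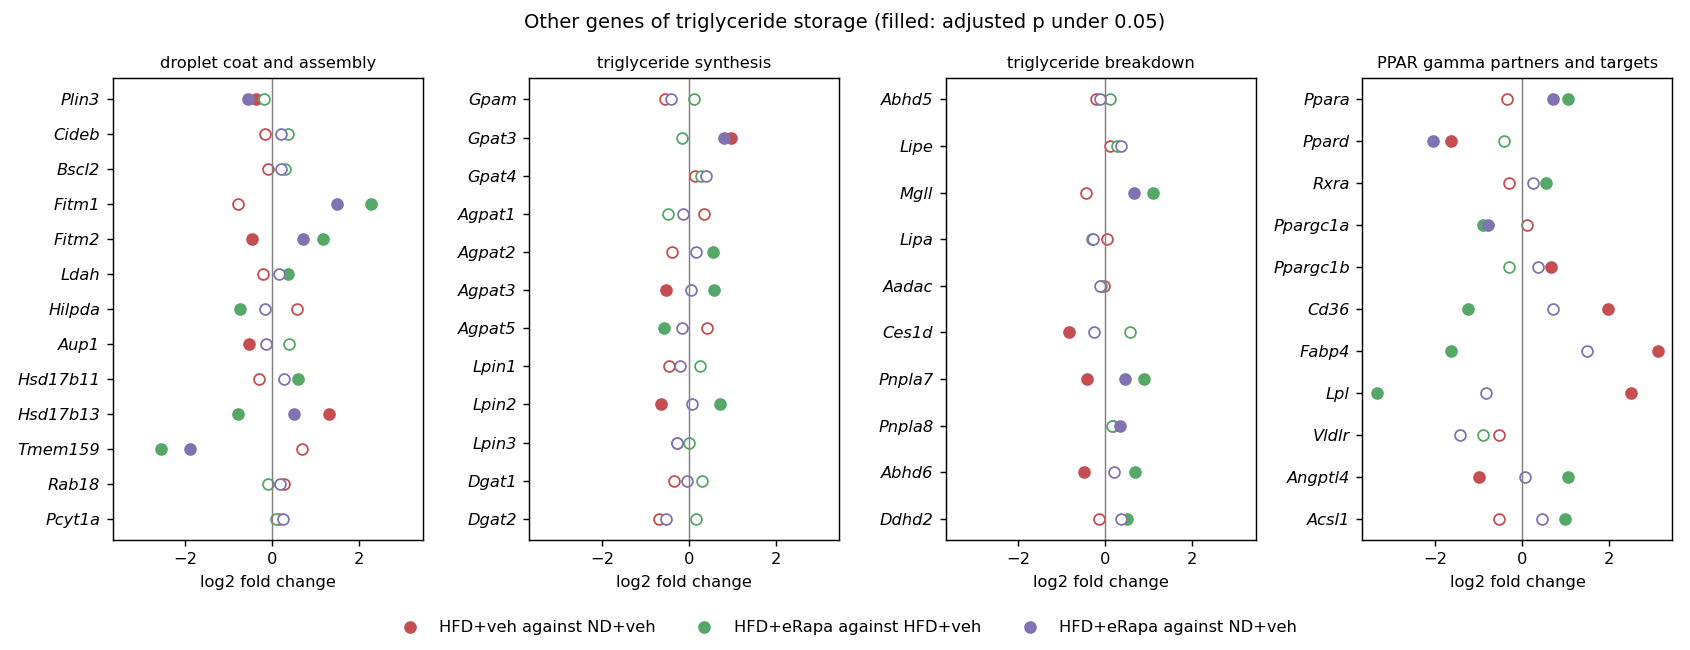
Log2 fold change (x axes, edgeR) of 46 other genes of triglyceride storage (y axes) in 4 lists, coloured by comparison and filled where the adjusted p was under 0.05. Fabp4, Lpl and Cd36 lie right of 0 in HFD+veh against ND+veh (3.14, 2.52, 1.97) and left of 0 in HFD+eRapa against HFD+veh, while Fitm1 and Fitm2 lie to the right in both HFD+eRapa comparisons.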

How the data were processed

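RNA-seq data of 24 hepatocyte libraries were grouped by the sample labels, all of which give the same batch. Per the labels and methods, the authors aligned reads with STAR to mm10 (Gencode annotation), filtered with SAMtools 1.1.0 and counted reads per gene with HTSeq 0.11.2, so the deposited counts are raw. The deposited FPKM values were made by the authors with Cufflinks. Each table had 1 column per library. Gene coordinates were read from a Gencode annotation of GRCm38 and promoters from RefSeq. The setting of strand is not given in the sources used here.

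Counts were tested in R 4.3.3 with edgeR 4.0.16 (filterByExpr by group, TMM scaling, robust quasi-likelihood fit of 3 groups and 24 libraries). P-values were adjusted by Benjamini-Hochberg over 13847 genes and called under 0.05. SE is the absolute log2 fold change over the square root of F. CPM is TMM-scaled, and log2 CPM has a prior count of 2. P-values of correlations come from 100000 permutations within groups, two-sided. The immune score is the mean standardized log2 CPM of 12 tested macrophage, lymphocyte and neutrophil markers. The test was tried on simulated data.

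The smallest chi-square per degree of freedom between libraries of a group was 12.7 over 85 pairs, so each library was 1 replicate.

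The 10 genes and all lists were chosen with earlier results of these data known. Named from the other lists were, per comparison, the 3 called genes with the largest absolute log2 fold change. For Pparg, Cidec and Plin2 the 3 most correlated genes with a mean log2 CPM of at least 3 were named, and marker genes where their list moved or was at 0. Cideb, Dgat1, Dgat2, Plin1, Angptl4, Acsl1 and Rxra were mentioned outside the rule, after their values were seen. So were Ppard, Ppara and Hsd17b13 in comparisons where the rule did not name them. Alternatives were DESeq2 1.42.0, DESeq2 size factors in edgeR, limma 3.58.1 on log2(FPKM + 1) or log2(FPKM + 0.1), other filters on counts, fits of only the groups compared, the immune score as covariate, the replicate number as a block, and each library left out. The hepatocyte marker Tf was not analysed here.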

Additional observations from a re-analysis of the deposited data

Results flagged for a closer look

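Of 30 sets of log2 CPM values, 10 genes in 3 groups, 1 had an animal that stood apart by Dixon's criterion. Chance flags about 1 in 20. Pnpla3 in ND+veh replicate 4 was at a log2 CPM of 0.30, and the next ND+veh animal was at 2.67, so that the gap was 0.538 of the whole range of the group, above the critical value for 8 samples. That animal also lay farthest from the centre of ND+veh on 3 principal components. Without it and HFD+veh replicate 6, the log2 fold change of Pnpla3 was -3.05 in HFD+veh against ND+veh (adjusted p = 0.00215, edgeR) and -4.71 in HFD+eRapa against ND+veh (adjusted p = 1.42e-05, edgeR).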

How the results depend on the processing

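Counts of called genes follow in the order HFD+veh against ND+veh, HFD+eRapa against HFD+veh and HFD+eRapa against ND+veh, where they moved by over 1.5 times. Of the 10 genes, 3 were higher in the first, and 1 was with no filter on counts, 0 with the immune score, 1 with the replicate number as a block and 0 with limma on log2(FPKM + 1). The 2 lower became 1 with 10 counts in every library, with only the groups compared and with the immune score. In the second, 5 higher became 3 with limma on either FPKM scale, and 1 lower became 0 with no filter, 10 counts in every library, only the groups compared, the immune score, the block and limma on log2(FPKM + 1). In the third, 1 lower became 0 with 10 counts in every library, a filter that removes Cidea and Pnpla3. Of the 46 other genes, 6 higher in the first became 3 with the block, and 10 lower became 3 with only the groups compared and with the immune score. In the second, 15 higher became 9 with the immune score, and 8 lower became 5 with no filter, 2 with the immune score, 4 with the block, 5 with limma on log2(FPKM + 0.1) and 4 without ND+veh replicate 4 and HFD+veh replicate 6, a pair chosen after seeing the data. In the third, 8 higher became 3 with no filter and 2 with limma on either FPKM scale. The cause was not tested.

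Leaving out 1 library at a time gave 1 to 3 of the 10 genes higher and 1 to 2 lower in the first comparison, 4 to 5 and 0 to 1 in the second, and 5 and 1 in the third. The other genes gave 4 to 8 higher and 5 to 16 lower (16 without ND+veh replicate 4, 5 without HFD+veh replicate 3), then 12 to 19 and 4 to 8 (4 without HFD+veh replicate 6), then 3 to 10 and 3 to 5 (3 to 5 higher without ND+veh replicates 1, 2, 4, 6 or 8, HFD+veh replicates 3 or 4, or HFD+eRapa replicate 4).

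Among the log2 fold changes of the 10 genes, directions turned only where the gene did not pass the test in that comparison. In the first comparison Pnpla2 was at 0.00746 with DESeq2, 0.00749 with its size factors, 0.0257 with 10 counts in every library, 0.11 with the immune score and 0.0874 without both libraries (-0.0888 to 0.063 with 1 left out). With the immune score Plin2 was at -0.0763, Pparg at -0.16 and G0s2 at 0.0638 in the first comparison and G0s2 at -0.0513 in the second. G0s2 was at -0.0361 in the third without both libraries (-0.0708 to 0.301 with 1 left out). In the 3 comparisons 5 of 7, 2 of 7 and 2 of 8 pairs of libraries with the same replicate number had a correlation over 0.1. The mean r was 0.32, -0.24 and -0.20. Replicate numbers are shared between groups but belong to different animals, so they were not taken to pair the samples. The block by that number ended the calls of Cidea (1.93, adjusted p = 0.0696, edgeR) and Plin4 (1.1, adjusted p = 0.0632, edgeR) in the first comparison and of Plin4 (1.01, adjusted p = 0.0872, edgeR) and Pnpla3 (-1.82, adjusted p = 0.0958, edgeR) in the second. Pnpla3 in HFD+eRapa and Cidea in ND+veh rest on 1 to 42 and 0 to 33 counts, which limits their precision.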
